A study of Rattus norvegicus with 6 samples.

Results

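The genes described here are 10 regulators of alternative splicing in muscle, Rbm20, Rbm24, Rbfox1, Rbfox2, Celf1, Celf2, Mbnl1, Mbnl2, Ptbp1 and Ptbp2, out of 21648 genes in the count table. They were taken by gene symbol with no filter on their values, from a list made with earlier results of these data known. Each symbol matched 1 Ensembl gene. All 10 passed the filter on low counts. The RNA came from ventricular myocytes of wild-type rat pups at postnatal day 3. The cells were plated after a step that removes part of the fibroblasts, with bromodeoxyuridine in the medium, and later kept in medium with insulin, transferrin and selenium. Of 6 libraries, 3 came from cultures given the vehicle DMSO and 3 from cultures given 10 µM of compound 915, which the submitters call a pan-ERR agonist, each for 72 h. ERRs, the estrogen-related receptors, are nuclear receptors that drive genes of energy metabolism.

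Alternative splicing lets a gene make different messenger RNAs, and in heart muscle the pattern of included exons shifts after birth from a fetal to an adult set. RNA-binding proteins set this pattern. MBNL proteins favour adult exon choices in many transcripts, and CELF proteins act against them on a number of the same exons. RBFOX proteins bind GCAUG elements beside regulated exons, and PTBP1 binds pyrimidine-rich elements and keeps many muscle and nerve exons out. RBM20 and RBM24 are RNA-binding proteins of striated muscle. Gene counts measure the amount of each regulator's messenger RNA, not its isoforms, its protein or the splicing of its targets.

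The libraries held 30639244 to 40010826 counts each. Levels are CPM values (counts scaled to a common library total) and are not divided by gene length, so they are compared between libraries and not between genes. Fold changes come from the statistical fit, which scales libraries in another way (TMM), so they can differ from the ratio of the CPM means. The cardiomyocyte label had support in its markers: cardiac troponin T, Tnnt2, stood at 5192 ± 5.19 CPM with DMSO and 6137 ± 217 with 915 (SD, n = 3 each). Other cells were also present, since the fibroblast collagen gene Col3a1 stood at 7067 ± 160.0 and 2826 ± 90.8 CPM. The summed level of 11 cardiomyocyte markers was 22188 to 23374 CPM with DMSO and 31564 to 31992 with 915, with 10 of 11 called higher and 0 lower. The summed level of 11 fibroblast markers was 25601 to 26685 and 13578 to 14377 CPM, with 2 called higher and 8 lower. Most of the fibroblast sum came from the collagen genes Col1a1, Col3a1 and Col1a2. In RNA of a whole culture, fewer cells of a type and less RNA of its marker genes per cell cannot be told apart. The labels name biological replicates but not whether each had its own cell isolation, and the p-values therefore reflect only the spread among the 6 libraries, part of which may be technical.

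The question was which of these regulators change when cardiac myocytes meet an ERR agonist. Rbm20 and Rbm24 were higher with 915, and Rbfox1 and Ptbp1 were lower. The other 6 did not pass the test, an adjusted p under 0.05 in edgeR's quasi-likelihood fit over all genes. Of the 10 genes, 4 (2 higher and 2 lower) were called, where 49.8% of all 14253 genes tested were called, 24.3% higher and 25.5% lower. At a fold of at least 1.5, 1 of the 10 was called, against 18.2% of all genes. The median size of the log2 fold change, ignoring its sign, was 0.15 over the 10 genes and 0.27 over all genes tested. With only 10 genes, both shares of calls lay too near those of all genes to set the group apart. The 10 genes together took 889.8 to 940.0 CPM with DMSO and 876.6 to 921.9 CPM with 915, so their summed level overlapped between the groups.

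**Figure D1:**
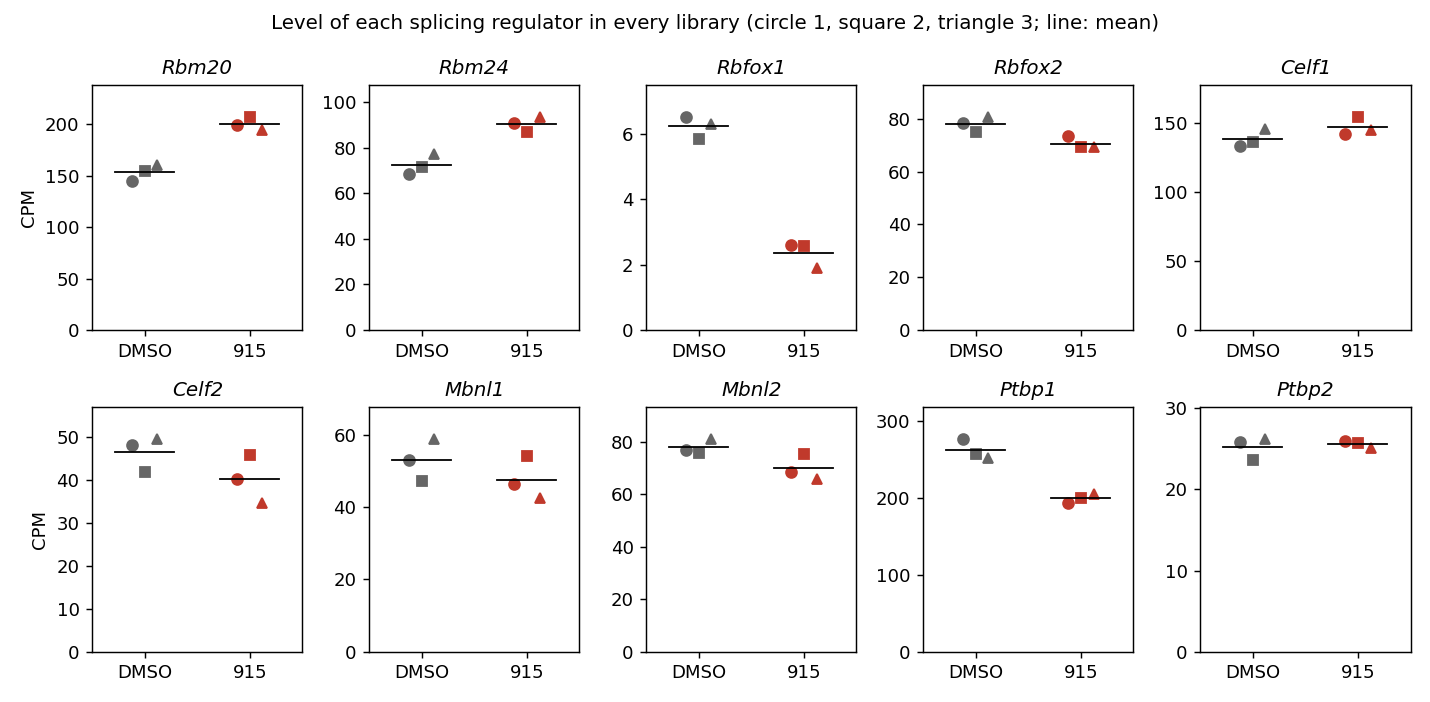
Level of each of the 10 splicing regulators in every library, in CPM on axes that start at 0; grey points are DMSO libraries, red points are 915 libraries, marker shapes give the replicate number and lines are group means. Rbm20 and Rbm24 lie higher in all 915 libraries, Rbfox1 and Ptbp1 lie lower, and the groups overlap for Celf1, Celf2, Mbnl1 and Ptbp2.

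RBM20 is a splicing repressor of striated muscle that keeps exons out of the transcript of the giant elastic protein titin and selects exons of several calcium-handling genes. Inherited changes in it cause dilated cardiomyopathy. Rbm20 (ENSRNOG00000014705) was measured at 145, 155 and 161 CPM in DMSO libraries 1 to 3 and at 199, 207 and 194 CPM in 915 libraries 1 to 3. All 915 libraries lay above all DMSO libraries, and the gap between the groups was 21.9% of the DMSO mean. Rbm20 rose 1.35-fold, by 0.43 ± 0.0522 in log2 (SE; edgeR adjusted p = 9.66e-06).

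RBM24 promotes inclusion of muscle exons and is needed for heart muscle to form its contractile units. Rbm24 (ENSRNOG00000046547) stood at 68.5, 71.7 and 77.5 CPM in DMSO libraries 1 to 3 and at 90.8, 86.9 and 93.6 CPM in 915 libraries 1 to 3. The groups did not overlap here either. Rbm24 rose 1.29-fold (0.37 ± 0.0591 in log2, SE; edgeR adjusted p = 0.000139). The ratio of Rbm20 to Rbm24 counts overlapped between the groups, with a difference of 0.07 in log2 (exact two-sided permutation p = 0.4).

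The cardiomyocyte markers moved with both genes. Per 1000 CPM of the 11 summed markers, a scale chosen after the data were seen, Rbm20 stood at 6.54, 6.62 and 7.06 in DMSO libraries 1 to 3 and at 6.27, 6.57 and 6.08 in 915 libraries 1 to 3. On that scale the groups overlapped. Rbm24 stood at 3.09, 3.07 and 3.40 with DMSO and at 2.85, 2.75 and 2.93 with 915, so that each 915 library lay below each DMSO library on the summed scale. Both readings depended on the marker. Against the 11 markers taken singly, the log2 ratio of Rbm20 was on average higher with 915 for 6 and lower for 5, with differences from −0.64 (Tnni3) to 0.25 (Nkx2-5), and that of Rbm24 was higher for 4 and lower for 7, from −0.71 to 0.18. For each of the 2 genes all 915 libraries lay above all DMSO libraries against 1 marker, Actn2, and below them against 5, and the groups overlapped against the other 5 (markers named after their values were seen).

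RBFOX proteins are splicing factors of muscle and nerve, and a lower Rbfox1 level has been described in failing hearts. Rbfox1 (ENSRNOG00000002827) had the largest change among the 10 genes and was the 1 called at 1.5-fold. It was measured at 6.52, 5.85 and 6.30 CPM in DMSO libraries 1 to 3, from 280, 243 and 249 counts. The 915 libraries 1 to 3 held 2.59, 2.57 and 1.89 CPM, from 99, 84 and 77 counts. Each 915 library lay below each DMSO library, by a gap of 52.4% of the DMSO mean. Rbfox1 fell 2.57-fold, with a log2 change of −1.36 ± 0.156 (SE; 95% interval −1.69 to −1.03; edgeR adjusted p = 5.62e-06). Per 1000 CPM of cardiomyocyte markers Rbfox1 stood at 0.294, 0.250 and 0.277 with DMSO and at 0.0814, 0.0814 and 0.0592 with 915. Because the summed markers were higher with 915, a gene lower in CPM had to be lower on that scale, which is no separate support. Neural markers summed to 53.0 to 58.6 CPM with DMSO and 34.9 to 39.8 CPM with 915. Of 6 tested, 4 were called lower and 0 higher, beside 25.5% and 24.3% of all genes tested. Most of the sum came from S100b and Tubb3, at means of 22.0 and 17.5 CPM with DMSO. Tubb3 was not called (edgeR adjusted p = 0.0543). The part of neural markers in the Rbfox1 result was not tested.

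The paralog Rbfox2, more broadly expressed in the body, did not pass the test. Rbfox2 (ENSRNOG00000004688) stood at 78.4, 75.2 and 80.8 CPM with DMSO and at 73.4, 69.3 and 69.3 CPM with 915. The 915 libraries were lower by a gap of 2.35% of the DMSO mean, and the log2 fold change of −0.10 had a 95% interval of −0.21 to 0.02 (edgeR adjusted p = 0.146). With library totals alone as the scaling, Rbfox2 passed as lower, at −0.15 (edgeR adjusted p = 0.0274). The log2 ratio of Rbfox1 to Rbfox2 counts fell from −3.65 ± 0.0539 to −4.92 ± 0.236 (SD, n = 3 each), with no overlap. This makes the ratio 2.42-fold lower with 915. Its exact two-sided permutation p was 0.1, the smallest that 3 against 3 libraries allow, and 0.2 after adjustment over the 8 ratios computed.

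PTBP1 is found in most dividing and immature cells and represses exons that muscle and nerve include as they mature. Ptbp1 (ENSRNOG00000010448) was measured at 277, 258 and 253 CPM in DMSO libraries 1 to 3 and at 194, 201 and 205 CPM in 915 libraries 1 to 3. The groups were separated by 18.3% of the DMSO mean. Ptbp1 fell 1.27-fold (log2 fold change −0.35 ± 0.0485, SE; edgeR adjusted p = 4.06e-05). In the same libraries 8 of 11 fibroblast markers were called lower and 2, Dcn and Pdgfra, were called higher. Smooth muscle markers summed to 1770 to 1909 CPM with DMSO and 737.9 to 790.3 CPM with 915 (5 of 6 called lower, 0 higher). Their part in the Ptbp1 result was not tested.

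PTBP2 is the paralog best known from nerve cells, where it takes over from PTBP1 during maturation. Ptbp2 (ENSRNOG00000010827) stood at 25.9, 23.6 and 26.3 CPM with DMSO and at 26.0, 25.7 and 25.1 CPM with 915. All 915 values lay inside the DMSO range. The log2 fold change was 0.07, with a 95% interval of −0.08 to 0.21 (edgeR adjusted p = 0.421). The log2 ratio of Ptbp2 to Ptbp1 counts went from −3.38 ± 0.0971 to −2.96 ± 0.0642 (SD, n = 3 each; exact two-sided permutation p = 0.1, adjusted 0.2), without overlap. The ratio of Rbm20 to Ptbp1, a muscle repressor against a general one, was 1.71-fold higher with 915, at log2 values of −0.93, −0.73 and −0.65 with DMSO and 0.04, 0.05 and −0.08 with 915 (exact two-sided permutation p = 0.1, adjusted 0.2).

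**Figure D2:**
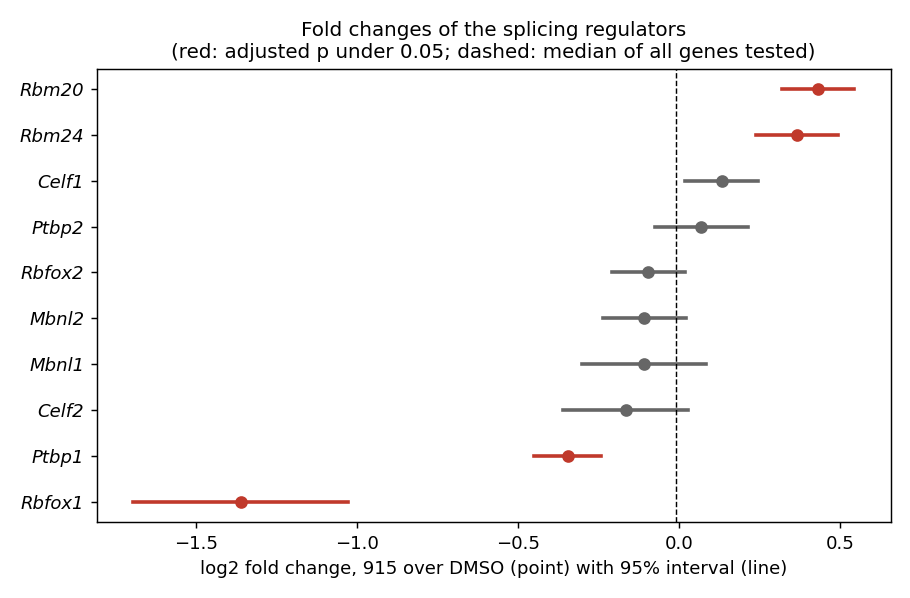
Log2 fold change of each regulator with 915 (points) and its 95% interval (lines) from the edgeR fit; red marks an adjusted p under 0.05 and the dashed line is the median of all genes tested, −0.01. Rbfox1 at −1.36 stands away from the other 9, which lie between −0.35 and 0.43.

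CELF proteins bind GU-rich elements, and their protein level in the heart falls after birth as MBNL activity grows. Celf1 (ENSRNOG00000010379) stood at 134, 136 and 146 CPM in DMSO libraries 1 to 3 and at 142, 154 and 145 CPM in 915 libraries 1 to 3. The groups overlapped. Its log2 change of 0.13 ± 0.0530 (SE; 95% interval 0.02 to 0.25) lay just outside the threshold (edgeR adjusted p = 0.0508). Celf1 passed as higher in 5 of 13 alternatives, among them the DESeq2 test (0.14, DESeq2 adjusted p = 0.0407) and the fit without DMSO library 3 (0.17, edgeR adjusted p = 0.0326), and its adjusted p ranged from 0.0326 to 0.245 over all 13.

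Celf2 (ENSRNOG00000023661) had a fold change of the opposite sign, which did not pass. It was measured at 48.2, 42.0 and 49.7 CPM with DMSO and at 40.3, 45.9 and 34.6 CPM with 915. The groups overlapped through a low DMSO library 2 and a high 915 library 2, and the log2 change was −0.17 ± 0.0899 (SE; edgeR adjusted p = 0.141). Without 915 library 2 the value was −0.27 and passed (edgeR adjusted p = 0.0202), and without DMSO library 2 it was −0.23 (edgeR adjusted p = 0.0401). Without 915 library 3 it was −0.07, and over all 13 alternatives the adjusted p ranged from 0.0202 to 0.537. The log2 ratio of Celf1 to Celf2 counts was 1.47, 1.70 and 1.55 with DMSO and 1.82, 1.75 and 2.06 with 915, so that the ratio was 1.23-fold higher with no overlap (exact two-sided permutation p = 0.1, adjusted 0.2). Macrophage and leukocyte markers, from cells that also express Celf2, summed to 227.5 to 245.6 CPM with DMSO and 119.8 to 145.7 CPM with 915 (5 of 10 called lower, 0 higher). Their part in the Celf2 values was not tested.

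MBNL proteins are zinc finger proteins that bind GC-containing elements flanked by pyrimidines, and their loss to expanded repeats underlies myotonic dystrophy. Mbnl1 (ENSRNOG00000014076) stood at 53.1, 47.2 and 58.9 CPM with DMSO and at 46.4, 54.1 and 42.4 CPM with 915. The groups overlapped widely, and the log2 fold change of −0.11 had a 95% interval of −0.30 to 0.08 (edgeR adjusted p = 0.334). Mbnl2 (ENSRNOG00000010737) was measured at 77.0, 75.5 and 81.1 CPM with DMSO and at 68.4, 75.4 and 65.7 CPM with 915. Its highest 915 library lay just under its lowest DMSO library, by 0.0562% of the DMSO mean, and its log2 change of −0.11 ± 0.0598 (SE) did not pass (edgeR adjusted p = 0.149). Mbnl2 passed as lower without 915 library 2 (−0.16, edgeR adjusted p = 0.0405) and with library totals alone (−0.17, edgeR adjusted p = 0.0339), out of a range of 0.0339 to 0.416 over its 13 alternatives.

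The log2 ratio of Mbnl1 to Mbnl2 counts was −0.56 ± 0.110 with DMSO and −0.56 ± 0.0762 with 915 (SD, n = 3 each; exact two-sided permutation p = 1), and the difference stayed between −0.06 and 0.05 with any 1 library left out. Between the antagonist families, the log2 ratio of Mbnl1 to Celf1 went from −1.39 ± 0.124 to −1.63 ± 0.131 with overlap (exact two-sided permutation p = 0.2, adjusted 0.32). That of Mbnl2 to Celf2 went from 0.74 ± 0.0900 to 0.80 ± 0.109, also with overlap (exact two-sided permutation p = 0.5, adjusted 0.571). With 3 against 3 libraries no ratio could pass 0.05.

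In Mbnl1, Mbnl2 and Celf2 the highest DMSO value was in library 3 and the lowest in library 2, whereas the highest 915 value was in library 2 and the lowest in library 3. These 3 of the 10 genes (30%) had this order, as did 936 of the 14253 genes tested (6.57%). The cause of the order was not tested. The spread within the 915 group, as a coefficient of variation, was 12.4%, 7.16% and 14.0% for Mbnl1, Mbnl2 and Celf2. It was 3.25% for Rbm20 and 2.67% for Ptbp1. Of the 10 genes it was largest for Rbfox1, at 16.8%, and smallest for Ptbp2, at 1.81%. Rbfox1 rested on 77 to 99 counts per 915 library, where Mbnl1, Mbnl2 and Celf2 had 1407 to 2672. Counting noise weighs more at low counts, so the spread of Rbfox1 is not directly comparable with theirs. The 915 library 2 was also the smallest of the 6, at 30639244 counts. Whether its depth bears on Mbnl1, Mbnl2 and Celf2 was not tested. In all, the groups did not overlap in CPM for 6 of the 10 genes, and they did not overlap for 56.7% of all genes tested. CPM rests on library totals alone. With that scaling the median log2 fold change of all genes was −0.07, against −0.01 with the TMM scaling of the fit. Small gaps, as for Rbfox2 and Mbnl2, and small overlaps, as for Celf1, can therefore depend on the scaling.

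**Figure D3:**
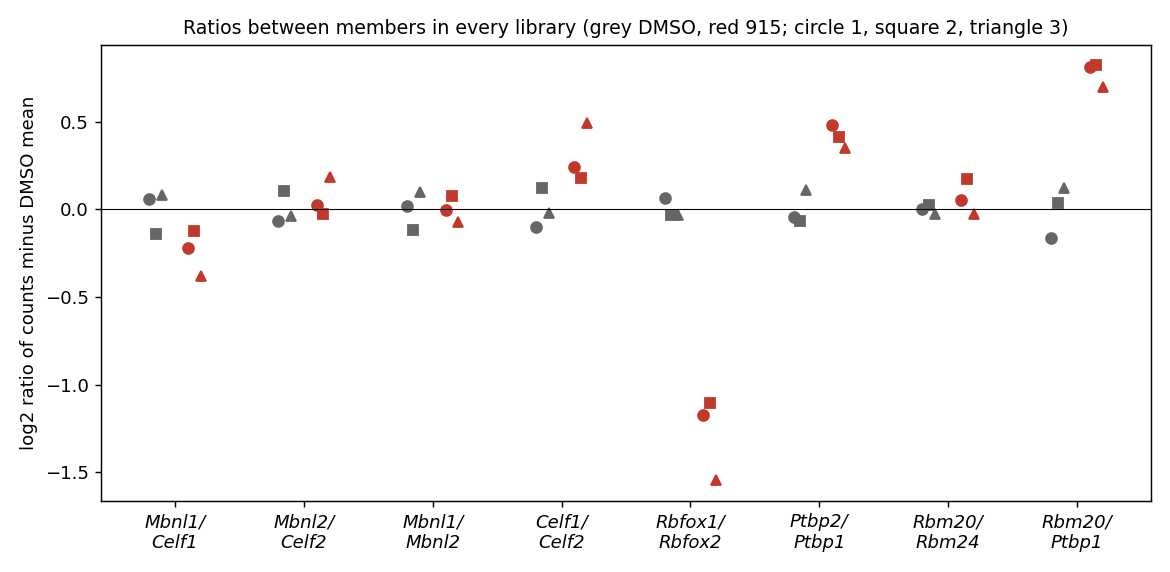
Log2 ratio of counts for 8 pairs of regulators in every library, each minus its DMSO mean; grey points are DMSO, red points 915, and shapes give the replicate number. The groups are apart for Celf1/Celf2, Rbfox1/Rbfox2, Ptbp2/Ptbp1 and Rbm20/Ptbp1 and overlap for the other 4 pairs.

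Promoter sequences were looked at because 915 acts on ERRs, which bind the element TCAAGGTCA. RefSeq windows of 300 bases (250 before to 50 after the start site, GRCr8 assembly) were found for 7 of the 10 genes, with 2 start sites for Mbnl2. The following are the 120 bases before the start site of the changed genes that had a window, 5′ to 3′ on the gene's strand, all in lower case since none holds AGGTCA, the core of the element, on either strand.
Rbm24, chr17:18493629-18493748, minus strand: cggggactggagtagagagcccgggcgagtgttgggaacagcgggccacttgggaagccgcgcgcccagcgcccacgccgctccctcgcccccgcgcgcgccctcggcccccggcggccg
Rbfox1, chr10:8999392-8999511, minus strand: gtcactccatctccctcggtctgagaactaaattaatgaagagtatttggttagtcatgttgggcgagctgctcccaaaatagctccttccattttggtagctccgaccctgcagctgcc
Ptbp1, chr7:10502958-10503077, minus strand: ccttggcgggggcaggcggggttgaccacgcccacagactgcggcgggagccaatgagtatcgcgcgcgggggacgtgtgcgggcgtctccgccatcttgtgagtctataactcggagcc

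TCAAGGTCA was found in none of the 8 windows and in 0.433% of all 33469 promoter windows of the table. Its shorter form AAGGTCA, which overlaps it, was found in the second Mbnl2 window alone and in 4.61% of all windows, and AGGTCA, contained in both, in that same window and in 16.2% of all windows. Both strands were searched. The Mbnl2 match is shown with 20 bases on each side and the match in capitals, which reads AAGGTCA on the opposite strand and begins 127 bases before the start site.
Mbnl2, second start site, chr15:103822677-103822723, plus strand: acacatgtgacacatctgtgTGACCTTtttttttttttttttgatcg
The windows of the changed genes differed in composition. Those of Rbm24 and Ptbp1 had a GC content of 68.3% and 62% with 38 and 27 CpG dinucleotides, and that of Rbfox1 had 43.7% with 5, beside medians of 51.7% and 7 over all windows. A match is a description of letters, and its absence here says nothing about sites elsewhere.

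The 10 genes were set beside other genes of the splicing machinery. Of 21 tested paralogs and other tissue-restricted regulators 3 were called higher and 6 lower (median log2 fold change −0.17, beside −0.01 over all genes tested). These counts lay near the shares of all genes, 24.3% higher and 25.5% lower. Raver2, a partner of PTBP1 in repression, fell 1.75-fold in the fit (edgeR adjusted p = 0.000272). Its level was 7.04 ± 0.371 CPM with DMSO and 3.88 ± 0.634 CPM with 915 (SD, n = 3 each). Elavl1, which encodes the RNA-stabilising protein HuR, rose 1.33-fold (edgeR adjusted p = 0.000331), and Rbpms, an RNA-binding protein of heart and smooth muscle, rose 1.25-fold (edgeR adjusted p = 0.000114). The third MBNL gene, Mbnl3, named after its values were seen, went from 5.65 ± 0.530 to 2.20 ± 0.719 CPM (−1.32 in log2, edgeR adjusted p = 0.000103), where Mbnl1 and Mbnl2 did not pass. Mbnl3 rested on 56 to 103 counts per 915 library. Celf3 and Celf5, also at low levels and named after their values were seen, fell too (−1.03 and −0.70 in log2, edgeR adjusted p = 0.000873 and 0.0201).

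Over all genes tested, 25.5% were called lower and 24.3% higher. SR proteins, which bind exons and promote their use, were called lower in 10 of 13 tested cases and higher in 0, and their median log2 change was −0.21. Srsf9 fell 1.39-fold and Srsf10 1.23-fold (edgeR adjusted p = 2.92e-05 and 0.00064), as did Srsf7 by 1.24-fold at 1 of the 2 genes that carry that symbol (ENSRNOG00000027360; edgeR adjusted p = 0.00031). The other copy did not pass the filter, and such copies can share reads. Of 19 hnRNP proteins, RNA packaging proteins that often repress exons, 7 were lower and 1, Hnrnpf (named after its values were seen), was higher (median −0.13). Hnrnpf (edgeR adjusted p = 0.0249) no longer passed without DMSO library 3, 915 library 1 or 915 library 3. Hnrnph1, Hnrnpa2b1 and Hnrnpa1 fell 1.34-fold, 1.33-fold and 1.30-fold (edgeR adjusted p = 2.65e-05, 6.32e-05 and 2.45e-05).

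Of 8 kinases that phosphorylate SR and other splicing proteins 1 was higher (Dyrk1a, 1.16-fold, edgeR adjusted p = 0.00454) and 1 lower (Prpf4b, 1.37-fold, edgeR adjusted p = 0.00221), and without DMSO library 3 the higher calls numbered 2. Of 26 core spliceosome genes 3 were called higher and 6 lower, around a median of −0.05. The shares over all genes tested were 24.3% higher and 25.5% lower. Among the core genes the U1 protein gene Snrpa fell 1.34-fold, the Sm protein gene Snrpf fell 1.26-fold and Cdc5l rose 1.25-fold (edgeR adjusted p = 8.91e-05, 0.000889 and 0.000509). None of the genes in the SR, hnRNP, kinase and core lists was called at 1.5-fold, against 18.2% of all genes tested.

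**Figure D4:**
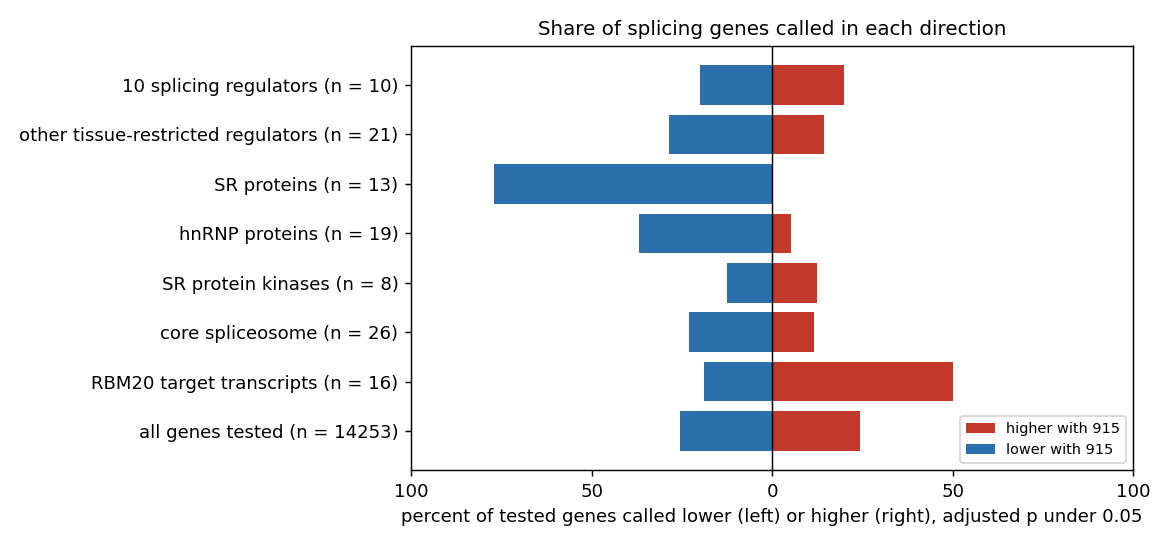
Percent of tested genes called lower (blue, left) or higher (red, right) with 915 at an adjusted p under 0.05, for the 10 regulators, 6 other lists and all 14253 genes tested. SR proteins, at 10 lower of 13, reach farthest to the left, and RBM20 target transcripts, at 8 higher of 16, farthest to the right.

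Transcripts known to be spliced under RBM20 were looked at for their total amount. Ttn, Ldb3 and Lmo7, which the list also held, had no match among the genes of the count table and could not be analysed here. Of 16 measured genes 8 were higher and 3 lower, beside 24.3% higher and 25.5% lower over all genes tested. The median in log2 was 0.13, beside −0.01 over all genes tested. Mlip, a heart protein that binds lamin, rose 1.43-fold in the fit, and the adaptor gene Sh3kbp1 rose 1.37-fold (edgeR adjusted p = 1.29e-06 and 5.35e-06). The level of Mlip was 62.1 ± 2.03 CPM with DMSO and 85.9 ± 1.56 CPM with 915 (SD, n = 3 each). Camk2d, the calcium-dependent kinase whose exon choice depends on RBM20, fell 1.35-fold in the fit (−0.43 ± 0.0501 in log2, SE, edgeR adjusted p = 6.68e-06). Its level was 147 ± 2.57 CPM with DMSO and 106 ± 5.42 CPM with 915 (SD, n = 3 each). Pdlim3, a protein of the Z-disc, fell 1.62-fold in the fit (edgeR adjusted p = 7.46e-07). Its level was 70.0 ± 1.59 CPM with DMSO and 41.7 ± 3.65 CPM with 915 (SD, n = 3 each). So more of these transcripts were called higher than lower, but their total levels did not all move in 1 direction with Rbm20. Cardiomyocyte markers, of which Ryr2 is on both lists, were higher in the same libraries.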

How the data were processed

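RNA of 6 cultures was sequenced. Per the submitters' processing notes, reads were aligned with STAR (2.5.1a) to Rnor_6.0 and counted with Subread featureCounts (1.4.6-p5). For the strand setting and for multi-mapping reads nothing is given in the sources used here. Overlapping genes and copies can therefore share reads. The raw gene counts deposited by the authors held 22641 rows, 993 of which repeated an Ensembl identifier and were dropped, leaving 21648. The CPM values deposited by the authors are those counts divided by 1 total per library and scaled, 32709227 to 42975767. A count of 0 allows up to 3 counts, 0.0698 to 0.0917 CPM, for counting error only.

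Counts were filtered with filterByExpr, scaled by TMM and tested across all genes with edgeR 4.0.16 (quasi-likelihood, group alone, two-sided, Benjamini-Hochberg, threshold 0.05) in R 4.3.3. The standard error is the log2 fold change divided by the square root of F. Ratios between members were compared with exact permutation tests over libraries. Within a group, libraries differed beyond counting noise (chi-square over degrees of freedom 5.45 to 11.6).

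The members and lists were chosen with earlier results of these data known. The 186 list entries matched 173 rows, 2 through a RefSeq table (Hnrnpa0 and Col1a2, under other symbols). The rule for named genes took all members, Tnnt2, Ttn, Camk2d and Ldb3, and, by largest change among called genes of at least 5 CPM, up to 3 of each splicing list and 2 of each marker list. Marker genes are named where a result turns on them. Of the lists, endothelial markers summed to 78.0 to 81.6 CPM with DMSO and 64.8 to 66.0 with 915 (1 of 9 higher, 4 lower). Alternatives were other scalings (DESeq2 size factors, library totals alone), DESeq2 1.42.0, limma-voom (limma 3.58.1), other filters (any count above 0, or at least 1 CPM in 3 libraries), a replicate block and leaving out each library.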

Additional observations from a re-analysis of the deposited data

How the results depend on the processing

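Over 36 results and 428 alternative values, 406 kept their side of the threshold or stayed within 1.5 times of the count. A change of sign was not counted as a change where neither value passed. The Mbnl1 to Mbnl2 difference in log2 ratio was 0.0002, but −0.0386 without 915 library 2 and −0.0595 without DMSO library 2. That of Mbnl2 to Celf2 was 0.0605, but −0.0007 without 915 library 3. The ratios could not pass in any alternative, so their place among the 406 is no sign of stability. Rbm20, Rbm24, Rbfox1 and Ptbp1 passed in all 13 alternatives, at log2 fold changes of 0.38 to 0.47, 0.31 to 0.42, −1.44 to −1.22 and −0.40 to −0.31. Celf1 crossed the threshold with DESeq2 size factors (0.14), the DESeq2 test (0.14), limma-voom (0.13) and the filter of 1 CPM (0.13), and ranged from 0.10 to 0.17 with 1 library left out. Leaving out 1 library gave −0.27 to −0.0686 for Celf2 and −0.16 to −0.0674 for Mbnl2. With library totals alone Mbnl2 (−0.17) and Rbfox2 (−0.15) passed, so that 4 of the 10 genes were called lower, where 2 to 4 were with 1 library left out. That scaling put the median of all genes at −0.07, called 10 core spliceosome genes lower and called 0 hnRNP genes higher. The hnRNP genes called higher numbered 2 with DESeq2 size factors, the DESeq2 test, limma-voom, the 1 CPM filter and no filter, and 0 to 1 with 1 library left out; the SR protein kinases called higher numbered 1 to 2. The causes were not tested.

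Same-numbered libraries did not deviate together (correlations of −0.0338, −0.111 and −0.0896), and no library correlated best with its own number. With a replicate block 6193 genes were called, 2996 higher and 3197 lower, the same 4 members passed (Rbm20 at 0.43, edgeR adjusted p = 0.000298) and the hnRNP genes called higher numbered 0. Depth limits Rbfox1 most, at 77 to 99 counts per 915 library.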
